A study of Mus musculus with 4 samples.

Results

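The Egr and Nr4a genes are 2 small families of activity-induced transcription factors. They were taken from the deposited gene table by symbol (Egr1, Egr2, Egr3, Egr4, Nr4a1, Nr4a2 and Nr4a3), and all 7 were found among its 17778 genes. The table describes messenger RNA of frontal neocortex, the medial prefrontal cortex or mPFC on both sides of the brain, from male mice, C57BL/6 in the labels and C57BL/6J in the study's methods, that entered the experiment as juveniles. Mice of the CUMS group (2 libraries) lived under chronic unpredictable mild stress, a schedule of social isolation and randomly changing mild stressors, and were kept in the study only if sucrose preference, Y-maze and forced swimming tests all pointed to a depression-like state, which limits the group to mice chosen for all of these changes. Mice of the control group (2 libraries) were the same strain without these stressors. Both groups went through the behavioral tests, and the tissue was taken 24 hours after them. The labels give no genetic change or drug in either group, and they do not say whether a library came from 1 mouse.

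Each gene had 1 value per group, the mean RPKM of the libraries of that group. RPKM divides the reads of a gene by its length and by the depth of the library, so that levels of different genes can be set side by side. No value for a single library was used here, because the table holds group means. The spread between mice is therefore unknown, no difference below has a replicate check, and no p-value is given. The error given is a 95% counting interval, for which each control library was estimated to hold 7385524 fragments and each CUMS library 7440476. It covers counting error only. The estimate takes the smallest step of the table as 1 fragment, which no source states, and it lies below the depth that the study's own totals of mapped read pairs imply. Intervals at 2 times this depth are therefore given where they change a statement.

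Neurons switch Egr and Nr4a genes on within minutes of strong synaptic input, without the need for new protein. Calcium entry and the MAP kinase cascade activate the factors CREB, SRF and its Elk partners, which are already bound near the start of these genes. Egr1 (also called Zif268), Egr2 (Krox20), Egr3 and Egr4 are zinc finger proteins that bind a common GC-rich site. The corepressors Nab1 and Nab2 hold Egr1, Egr2 and Egr3 in check. Nr4a1 (Nur77), Nr4a2 (Nurr1) and Nr4a3 (Nor1) are orphan nuclear receptors that bind DNA without a known natural hormone. In forebrain, Egr1 and Egr3 are known for roles in synaptic plasticity and memory. Nr4a2 is known for the making of dopamine neurons and as a marker of claustrum and deepest-layer cortical neurons.

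The sequence near the start of these genes was read for the letters that activity-regulated factors bind. Windows of 300 bases (250 before and 50 from the start on, RefSeq, GRCm38.p6) were found for 5 of the 7 genes. Letters searched on both strands were TGACG, the half-site of CREB, the CArG box of SRF, GCGGGGGCG or GCGTGGGCG, the site of the Egr proteins, and AAAGGTCA, the site of a single Nr4a protein. TATAAA, the core promoter letters of many sharply regulated genes, was searched on the strand of the gene. The stretch from the first to the last match with its flanks is shown for each gene, 5′ to 3′ on the strand of the gene, with the matches in capitals (CREB half-sites, which read CGTCA on the other strand, the CArG box of Egr2 and the Egr site of Nr4a1). For Egr2, which has several start sites, the window with the most matches is shown. The stretches lie at chr10:67537748-67537828 (plus strand, Egr2), chr6:85513684-85513776 (minus strand, Egr4), chr15:101266603-101266820 (plus strand, Nr4a1), chr2:57124100-57124213 (minus strand, Nr4a2) and chr4:48045064-48045172 (plus strand, Nr4a3).
Egr2: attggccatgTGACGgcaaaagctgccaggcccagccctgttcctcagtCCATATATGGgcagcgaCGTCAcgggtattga
Egr4: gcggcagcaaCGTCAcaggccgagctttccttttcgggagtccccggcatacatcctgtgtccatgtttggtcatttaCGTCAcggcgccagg
Nr4a1: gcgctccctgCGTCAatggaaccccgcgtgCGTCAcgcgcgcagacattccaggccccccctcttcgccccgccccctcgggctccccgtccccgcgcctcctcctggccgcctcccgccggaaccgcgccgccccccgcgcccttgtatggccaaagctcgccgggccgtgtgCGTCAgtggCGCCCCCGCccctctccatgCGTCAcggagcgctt
Nr4a2: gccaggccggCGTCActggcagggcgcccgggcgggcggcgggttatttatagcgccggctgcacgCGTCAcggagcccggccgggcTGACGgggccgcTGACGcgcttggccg
Nr4a3: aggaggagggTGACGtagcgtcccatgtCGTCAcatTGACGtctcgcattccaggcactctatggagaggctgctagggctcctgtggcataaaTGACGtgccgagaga

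At least 2 CREB half-sites were present in a window of each of the 5 genes, against 5.70% of 27018 genes with a window. For both, a gene with several windows was counted by the window with the most half-sites. Not every window of Egr2 held a half-site. Nr4a1, Nr4a2 and Nr4a3 held 4 half-sites each and Egr2 and Egr4 held 2 each. In Nr4a1 they began 233, 213, 69 and 40 bases before the start, and the Egr site began 60 bases before it. In Egr2 the CArG box, 72 bases before the start, stood between half-sites at 111 and 55 bases. Over all windows, 20.8% held at least 1 half-site, 1.63% a CArG box, 3.47% an Egr site, 1.51% an Nr4a site and 8.32% TATAAA. Neither of the last 2 was found in the 5 genes. A match is a run of letters and was not tested for binding.

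All 7 genes had a lower mean in CUMS, where 53.2% of the 14257 genes did that reached 0.5 RPKM in a group. Their log2 ratios of CUMS over control ran from -0.84 to -0.30 with a median of -0.45, against a median of -0.02 over these 14257 genes. The counting interval lay under 0 for 6 of the 7, as it did for 16.8% of genes, and the exception was Nr4a3. At 2 times the estimated depth it lay under 0 for 7 of the 7 and for 24.9% of genes. Lower by over 1.5-fold, the fold used in the study's methods, was 1 of the 7 genes, Egr2. The share was 4.42% of genes that reached 0.5 RPKM in a group and 1.28% of the 9397 that reached 5 RPKM in a group. Of the 7, 6 had a CUMS mean under 80% of control, against 11.3% of genes, and the exception was again Nr4a3. Nr4a2, at 79.6% of control, was just under this bound. With the median ratio of all genes moved to 0 it was just over it. In whole tissue, fewer cells that express a gene and less RNA per cell cannot be told apart.

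**Figure D1:**
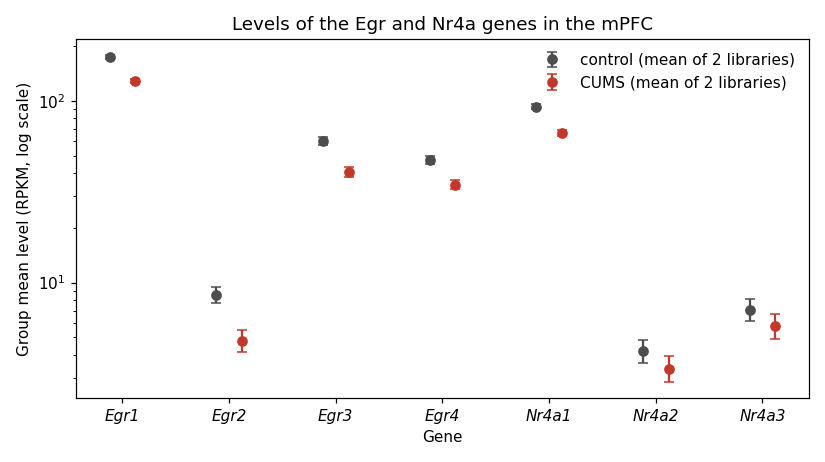
Group mean level of each gene in RPKM (log axis) in control (grey) and CUMS (red), each point the mean of 2 libraries with its 95% counting interval (exact Poisson). Every CUMS point lies under its control point, from Egr1 (174 and 128 RPKM) down to Nr4a2 (4.22 and 3.36 RPKM).

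Egr1, the most widely used marker of recent neuronal activity in this family, had the highest level of the 7. Its mean in control was 174 RPKM (counting interval 170 to 178, 7906 fragments over both libraries) and 128 RPKM in CUMS (125 to 132, 5860 fragments). The CUMS level was 73.6% of control, a log2 ratio of -0.44 (-0.49 to -0.39), and the intervals of the levels do not overlap. By level it stood 359th of the 17778 genes in control and 550th in CUMS.

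Egr2, which in the nerve drives myelination by Schwann cells and in the forebrain is induced by activity, had the lowest ratio. It was 8.54 RPKM in control (7.70 to 9.45, 375 fragments) and 4.78 in CUMS (4.15 to 5.46, 211 fragments), or 1.79-fold lower. The log2 ratio was -0.84 (-1.09 to -0.59), so that the whole interval lay just beyond 1.5-fold. With the median ratio of all genes moved to 0, the upper end of this interval fell short of 1.5-fold. Of the 9397 genes of at least 5 RPKM, 47 had a lower ratio.

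Egr3, induced with Egr1 in many activity responses and also needed for muscle spindles, came next. It was 60.1 RPKM in control (56.8 to 63.5) and 40.7 in CUMS (38.0 to 43.5), on 1257 and 857 fragments. This is 1.48-fold lower, just short of 1.5-fold, with a log2 ratio of -0.56 (-0.69 to -0.44).

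Egr4, the least studied of the family and mainly a gene of neurons and germ cells, was 47.1 RPKM in control (44.7 to 49.6) and 34.6 in CUMS (32.5 to 36.7). Its log2 ratio of -0.45 (-0.56 to -0.33) differed from that of Egr1 by 0.00 on the log2 scale (difference of Egr1 minus Egr4, interval -0.12 to 0.13).

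Among the Nr4a genes, Nr4a1 was by far the highest. It was 92.7 RPKM in control (89.6 to 95.8, 3470 fragments) and 66.6 in CUMS (64.0 to 69.2, 2510 fragments). The CUMS level was 71.8% of control, a log2 ratio of -0.48 (-0.55 to -0.40). Of the genes of at least 5 RPKM, 2.05% had a lower ratio.

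Nr4a2 was low in both groups, 4.22 RPKM in control (3.63 to 4.85, 191 fragments) and 3.36 RPKM in CUMS (2.86 to 3.94, 154 fragments). Its log2 ratio was -0.33 and its interval, -0.64 to -0.01, ended close to 0. With the median ratio of all genes moved to 0, the number of members with an interval under 0 went from 6 to 5. Nr4a3 was 7.12 RPKM in control (6.16 to 8.18, 198 fragments) and 5.79 in CUMS (4.92 to 6.74, 162 fragments). Its log2 ratio of -0.30 had an interval of -0.61 to 0.01, which reached 0 at the estimated depth. At 2 times that depth the intervals were -0.54 to -0.10 for Nr4a2 and -0.52 to -0.08 for Nr4a3, both under 0. The intervals of the levels overlap between groups for both genes.

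**Figure D2:**
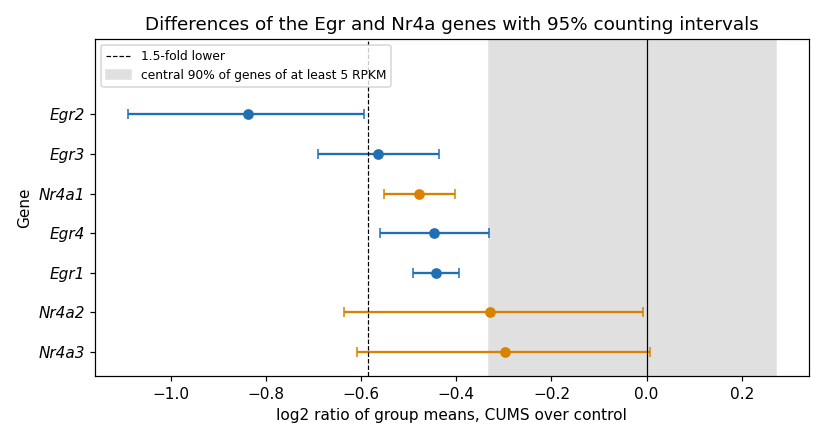
log2 ratio of the group means, CUMS over control, for each Egr gene (blue) and Nr4a gene (orange), with 95% counting intervals (exact Clopper-Pearson, counting error only). The grey band holds the central 90% of genes of at least 5 RPKM (-0.33 to 0.27), and the dashed line marks 1.5-fold lower. Egr2, Egr3, Nr4a1, Egr4 and Egr1 lie left of the band, Nr4a2 and Nr4a3 inside it.

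The members were then compared with each other. Of the 21 pairs of genes, 5 differed in log2 ratio by more than counting error, and each of these 5 pairs included Egr2. Egr1 minus Egr2 was 0.39 on the log2 scale (interval 0.15 to 0.64), and Egr2 minus Nr4a3 was -0.54 (-0.93 to -0.15). Egr2 minus Egr3 was -0.27, with an interval of -0.55 to 0.00 that reached 0. In the other 15 pairs, which do not include Egr2, each interval held 0. The widest of them, Nr4a2 minus Nr4a3, was -0.03 (-0.46 to 0.40) so that differences of up to these bounds are within counting error. At 2 times the estimated depth 9 pairs differed, 6 with Egr2 and 3 with Egr3 (against Egr1, Nr4a2 and Nr4a3), an alternative added after seeing the data. These are intervals of counting error over pairs that share genes, and they say nothing of mice.

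In control the order of the levels was Egr1, Nr4a1, Egr3, Egr4, Egr2, Nr4a3 and Nr4a2. In CUMS it was Egr1, Nr4a1, Egr3, Egr4, Nr4a3, Egr2 and Nr4a2. Egr2 and Nr4a3 thus stood in opposite order, 1.20-fold apart in control and 1.21-fold in CUMS, and their counting intervals overlapped in both groups. The counting intervals of all other neighbors did not overlap. The first 4 genes formed an upper group of levels. Egr4 was 5.52-fold above Egr2 in control and 5.97-fold above Nr4a3 in CUMS. The order depends on the gene lengths that were used for RPKM. For Nr4a3 the deposited length of 1884 bases equals the coding sequence alone, while its longest GENCODE M21 transcript has 5720 bases, and Egr3 was given 1416 bases against 3940. For Egr4 and Nr4a1 both lengths were close (2100 and 2148 bases, 2534 and 2553 bases). A length does not alter the ratio between groups.

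The make-up of the families on the RPKM scale was nearly alike in both groups. The summed level of the Egr genes was 290.0 RPKM in control and 208 in CUMS, a log2 ratio of -0.48. Egr1 made up 60.1% of this sum in control and 61.6% in CUMS, Egr3 20.7% and 19.5%, Egr4 16.2% and 16.6%, and Egr2 2.95% and 2.30%. The Nr4a sum was 104 RPKM in control and 75.7 in CUMS, a log2 ratio of -0.46, of which Nr4a1 was 89.1% and 87.9%. The sums therefore follow Egr1 and Nr4a1 and show little of the minor members.

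The genes lie on 7 different chromosomes, so that they are not neighbors. In GRCm38 (mm10) coordinates of RefSeq, Egr1 (gene 13653) spans chromosome 18, 34861207 to 34864956, Egr2 (13654) chromosome 10, 67534469 to 67542188, Egr3 (13655) chromosome 14, 70077317 to 70082613, and Egr4 (13656) chromosome 6, 85511121 to 85513589 on the minus strand. Nr4a1 (15370) spans chromosome 15, 101253902 to 101274795, Nr4a2 (18227) chromosome 2, 57106830 to 57124003 on the minus strand, and Nr4a3 (18124) chromosome 4, 48045078 to 48086447. The Egr genes are compact, with at most 2 to 4 exons in a GENCODE M21 transcript, and the Nr4a genes have up to 8. No other GENCODE M21 gene overlaps any of the 7 on either strand, and whether strand was used in counting was not stated.

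**Figure D3:**
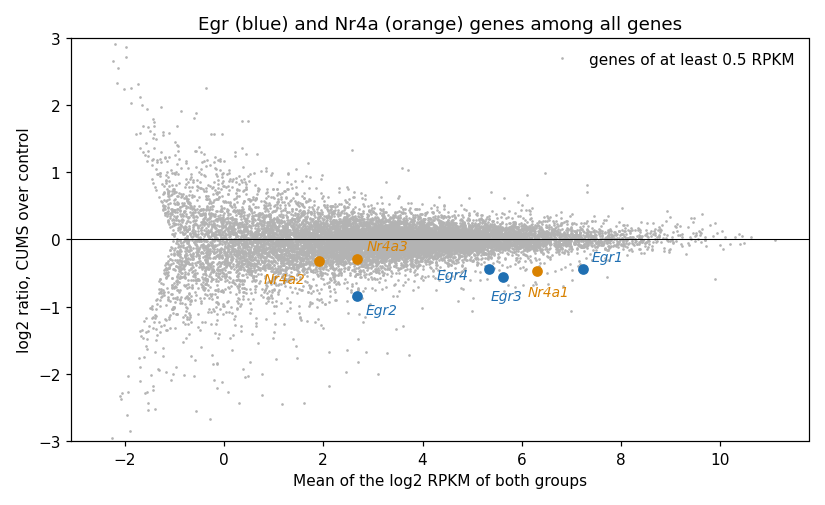
log2 ratio of CUMS over control (y axis, drawn from -3 to 3) against the mean of the log2 RPKM of both groups (x axis) for 14218 genes of at least 0.5 RPKM (grey), with the Egr genes in blue and the Nr4a genes in orange. Not drawn are 16 genes beyond the axis and 23 genes listed at 0.01 RPKM in a group. Egr1, Egr3, Egr4 and Nr4a1 lie at the lower edge of the cloud at their level, where few genes differ much, and Nr4a2 and Nr4a3 lie within it.

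The genes around the families were described in the same way. Among 15 other activity-induced transcription factors, 14 reached 0.5 RPKM, with a median log2 ratio of -0.40. Of these, 13 were lower in CUMS, as were 53.2% of all genes. Past the 1.5-fold threshold and lower were 5 of the 14, with 4.42% of all genes as the background. Fos, whose protein joins Jun in the AP-1 complex, was 46.4 and 22.3 RPKM (log2 ratio -1.06), and Ier2, an immediate early nuclear protein, was 14.2 and 7.91 RPKM (-0.85). The other 3 were Npas4, which responds to calcium alone, at 25.0 and 14.9 RPKM (-0.75), Fosl1 at 2.63 and 1.57 RPKM (-0.75) and Fosb at 10.8 and 6.94 RPKM (-0.64). Egr2 thus lay among these 5, and Egr1, Egr4 and Nr4a1 lay near Junb (-0.45). Bhlhe40 was higher in CUMS, 48.7 against 45.7 RPKM.

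Genes of kinases and factors that act upstream of Egr and Nr4a transcription were more often higher than lower in CUMS. Of 31 such genes, 12 were lower and 19 higher in CUMS, where 53.2% of all genes were lower. The median log2 ratio was 0.02, against -0.02 over all genes. None was lower past the 1.5-fold threshold, against 4.42% of all genes, and 1 was higher, against 2.78%, namely the kinase gene Rps6ka3 (1.80 and 2.97 RPKM, log2 ratio 0.73, interval 0.24 to 1.21). The interval lay over 0 for 10 of the 31 (12.5% of all genes) and under 0 for 5 (16.8% of all genes). These numbers describe mRNA and not the activity of the kinases.

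Partners and corepressors came next. Of 8 genes, 7 were lower (53.2% of all genes were), none by over 1.5-fold, with a median log2 ratio of -0.12. Nab2, a corepressor that Egr proteins themselves induce, was 25.6 RPKM in control and 21.3 in CUMS (-0.26, interval -0.40 to -0.13), and Nab1 was 4.30 and 3.73 RPKM (-0.21, -0.44 to 0.03). The intervals also held 0 for the receptor partners of Nr4a1 and Nr4a2, Rxra (log2 ratio -0.09), Rxrb (-0.10) and Rxrg (-0.14), and for the corepressors Ncor1 (-0.02) and Rcor1 (0.05).

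Genes known as Egr targets split between directions much as all genes did. Of 8 genes, 4 were lower and 4 higher in CUMS (53.2% of all genes were lower), with a median log2 ratio of 0.04. Lower by over 1.5-fold were 2 of the 8, Arc and Dusp4, against 4.42% of all genes. Arc, the synaptic cytoskeleton gene, was 184 RPKM in control and 88.0 in CUMS (-1.06, interval -1.12 to -1.01), and the MAP kinase phosphatase gene Dusp4 was 5.31 and 2.87 RPKM (-0.89, -1.25 to -0.54). Nab2 is given above. The synaptic vesicle genes Syn1 (283 and 313 RPKM, 0.14) and Syn2 (206 and 223 RPKM, 0.12) and the Cdk5 activator gene Cdk5r1 (92.6 and 99.7 RPKM, 0.11) were higher in CUMS, with intervals over 0. Mapt (-0.01) and Psen2 (0.09) had intervals that held 0. Arc is itself an immediate early gene with other inputs than Egr proteins.

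Of 8 dopamine neuron genes listed here as dependent on Nr4a2, 5 reached 0.5 RPKM. How far each gene depends on Nr4a2 was not tested. All 5 were lower in CUMS (53.2% of all genes were), 2 of them by over 1.5-fold (4.42% of all genes). Th, which makes the precursor of dopamine, was 7.78 and 2.44 RPKM (log2 ratio -1.67, interval -2.10 to -1.26), and the growth factor receptor gene Ret was 2.42 and 0.91 RPKM (-1.42, -1.76 to -1.08). Slc18a2 (-0.54, -1.10 to 0.02), Aldh1a1 (-0.53, -0.81 to -0.25) and Ddc (-0.39, -0.77 to -0.01) followed. Slc6a3, the dopamine transporter that defines these neurons, was 0.20 and 0.17 RPKM (10 and 9 fragments). Pitx3 was at 0 and 2 fragments, and En1 was not among the genes used here. The log2 ratio of Nr4a2 itself, -0.33, lay outside the counting intervals of Th and Ret and inside those of Slc18a2, Aldh1a1 and Ddc. What part such neurons or their fibers have in the level of Nr4a2 was not tested.

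**Figure D4:**
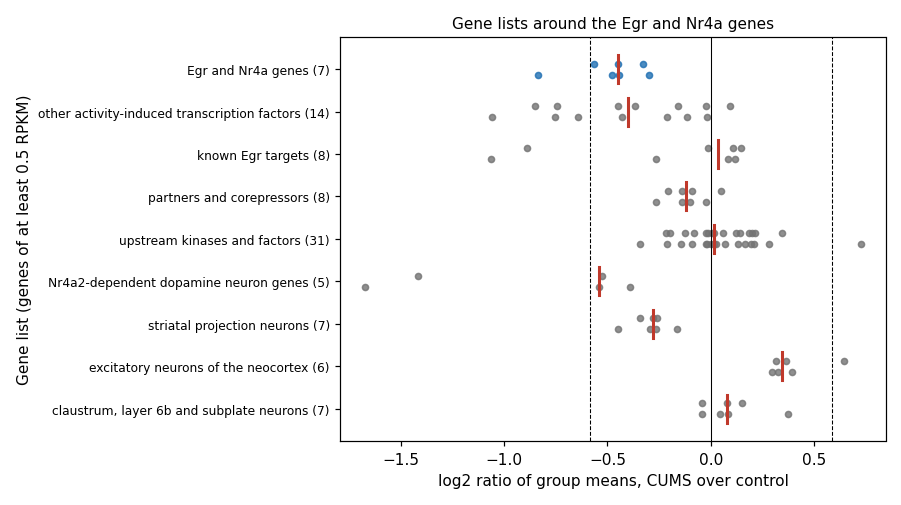
log2 ratio of each gene of at least 0.5 RPKM (points) and the median (red bar) for the Egr and Nr4a genes (blue) and 8 gene lists (grey, number of genes in parentheses). The solid line marks equal means and the dashed lines 1.5-fold. Other activity-induced factors have a median near that of the Egr and Nr4a genes (-0.40 and -0.45), upstream genes lie around 0, and neocortical excitatory neuron genes lie to the right.

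Markers of the cells that could hold these transcripts were read beside the members. The labelled tissue expressed the defining genes of neocortical excitatory neurons, led by Slc17a7 at 635 and 791 RPKM. In CUMS 6 of 6 such genes were higher, as were 6639 of all 14257 genes that reached 0.5 RPKM in a group. Their median log2 ratio was 0.34 and their summed level 741 and 927 RPKM. Emx1 was past 1.5-fold (9.28 and 14.5 RPKM, log2 ratio 0.65), and Tbr1 (0.30), Slc17a7 (0.32), Neurod6 (0.33) and Neurod2 (0.36) were not. Higher by over 1.5-fold were 2.78% of all genes. Their direction was opposite to that of the Egr and Nr4a genes. Striatal projection neurons, which also express Egr1 and Nr4a1 strongly, border on the dissected area. Their markers were lower in 7 of 7 genes (53.2% of all genes were), none by over 1.5-fold. The median was -0.28, the range -0.45 to -0.17 and the summed level 322 and 276 RPKM. Of their defining markers, Adora2a was 23.2 and 17.0 RPKM (log2 ratio -0.45), Drd1a 10.8 and 8.98 RPKM (-0.26), and Drd2 had a ratio of -0.34. Gpr6 had a ratio of -0.30, Rgs9 of -0.28 and Ppp1r1b of -0.17. Egr2, Egr3 and Nr4a1 had lower ratios than each of the 7 markers, Egr1 and Egr4 had ratios close to that of Adora2a, and Nr4a2 and Nr4a3 lay within the range of the markers. The part of striatal tissue in the levels of the members was not tested.

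Nr4a2 is also a marker of claustrum and layer 6b neurons. Of 7 further markers of these cells, 5 were higher in CUMS and 2 lower (53.2% of all genes were lower), none by over 1.5-fold. Their median log2 ratio was 0.08 (range -0.04 to 0.37) and their summed level 92.9 and 103 RPKM. Ctgf was 13.6 and 14.4 RPKM, and Cplx3 was 4.57 and 4.85 RPKM. Synpr (log2 ratio 0.15) and Ntng2 (0.37) had intervals over 0. The intervals held 0 for Ctgf (0.08), Cplx3 (0.08), Gnb4 (0.05), Moxd1 (-0.04) and Nxph4 (-0.04). The median of these markers and the ratio of Nr4a2 (-0.33) lay on opposite sides of 0.

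Other cells that can express Egr or Nr4a genes gave small or mixed values. Of the Schwann cell markers, Prx was 0.56 and 0.54 RPKM. Microglia markers had a median of 0.14 over 5 genes, of which Tmem119 and Csf1r (both -0.01) were lower and Cx3cr1 (0.14), Aif1 (0.48) and P2ry12 (0.54) higher. Endothelial markers had a median of -0.21 over 4 genes, with Cldn5 past the threshold (38.1 and 25.0 RPKM, -0.61), Pecam1 at -0.31, Cdh5 at -0.12 and Flt1 at 0.01. Beside both lists, 53.2% of all genes were lower in CUMS and 4.42% were lower by over 1.5-fold. The part of these cells in the result was not tested.

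The genes with the most similar values were sought for the highest member of each family. The measure was the distance between the pairs of log2 means, over 2 values (control and CUMS). Nearest to Egr1 were Gaa (distance 0.09), Penk (0.11) and Pnmal2 (0.14). Penk was 166 RPKM in control and 121 in CUMS. Nearest to Nr4a1 were Trf (0.10), Ppp1cc (0.12) and Htra1 (0.12). With 2 values per gene this is a likeness of level and ratio only.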

How the data were processed

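Poly(A) RNA of the mPFC was sequenced as paired reads from 2 control and 2 CUMS libraries. Per the methods and processing notes of the submitters, reads were trimmed with SolexaQA and aligned to mm10 with TopHat 1.0.12 and Bowtie 0.11.3, and reads with a unique alignment were counted for each gene. Which annotation was used, and whether strand was, is not given in the sources used here. The authors deposited RPKM values averaged over the libraries of a group, with the gene length they used. Columns of the authors' own comparison (a log2 ratio, its direction and a NOISeq probability) were not used.

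The log2 ratio of the means was computed anew, with no pseudocount. Mean times length rises in fixed steps, each taken as 1 fragment, and the step (67.7 in control and 67.2 in CUMS, from 406 and 392 short, low genes) gave 7385524 and 7440476 fragments per library, if 1 step is 1 fragment and both libraries of a group had equal depth. The values lay within 0.15 of a whole step in 86.5% and 86.2% of cases. Ratio intervals are exact Clopper-Pearson and level intervals exact Poisson, both at 95%, and differences between members use the normal approximation. They cover counting error only. Both computations were tested on simulated data that took 1 step as 1 fragment and equal depths, so that these assumptions themselves were not tested. A gene counted as past the fold if its means differed by over 1.5-fold with 0.5 RPKM reached in a group. The planned design had no test for want of values per library.

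Named were the 7 members, genes of lists of at most 10 genes (a few are counted in their lists but not reported here by name), genes of longer lists past the fold, and the 3 genes nearest to Egr1 and Nr4a1. Junb and Bhlhe40 were named after their values had been seen. The members and lists were chosen with earlier results of these data known. Coordinates and promoter sequence are RefSeq (GRCm38.p6), and exons are GENCODE M21. Python 3.11.15, numpy 2.4.6, pandas 2.3.3, scipy 1.17.1 and matplotlib 3.10.9 were used. Alternatives were other scalings, pseudocounts, fold thresholds, minima and depths.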

Additional observations from a re-analysis of the deposited data

How the results depend on the processing

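No paired analysis was possible because each group came as a single mean, and fits that leave out a replicate or block on the replicate number were not run for the same reason. The number of members past the fold was 1, and it was 6 with the threshold set at 80% of control and 0 at a fold over 2. It stayed at 1 under both rescalings, both pseudocounts, a minimum of 5 RPKM in either group and no minimum. Egr2, the gene counted, met the minimum of 5 RPKM in control (8.54 RPKM) and not in CUMS (4.78 RPKM). Each member's log2 ratio was computed under 5 alternatives, among them centering on genes of similar level, which was chosen after seeing the data. All 35 values were negative, between -0.84 and -0.26, and lay inside the counting interval of the main value. Rescaling moved every ratio by 0.02 (median of all genes to 0) or by -0.01 (equal total). The number of members with an interval under 0 was 6, and it was 5 at 0.5 times the estimated depth, 7 at 2 times that depth and 5 with the median of all genes at 0. The median over the members, -0.45, ran from -0.46 to -0.43. Of 36 list counts under alternatives added after seeing the data, 35 stayed within 1.5 times the main count. The count for the genes listed as dependent on Nr4a2 went from 2 to 1 at a minimum of 5 RPKM. Most of the lists had a main count of 0 and the rescalings moved the ratios little, so that these counts had little room to change. Depth limits Nr4a2 and Nr4a3 most, with fewer than 200 fragments per group by the estimate.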

Other observations

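Relatives of the families were read in the same way, on lists defined by gene symbol after the data had been seen. Besides the Nr4a genes, 14 genes with an Nr symbol, which names nuclear receptors, reached 0.5 RPKM. Of these, 7 were lower and 6 higher in CUMS (53.2% of all genes were lower), and the median log2 ratio was -0.04. Past the 1.5-fold threshold, where 4.42% of all genes were lower and 2.78% higher, were Nr1i3, at 0.96 and 0.34 RPKM (log2 ratio -1.53, counting interval -2.94 to -0.14), and the clock gene Nr1d1, at 54.9 and 87.0 RPKM (0.66, 0.59 to 0.74). Among all 17 genes of this name, Nr4a1 had the second lowest ratio, Nr4a2 the fourth and Nr4a3 the seventh. The stress hormone receptor genes stood apart from each other. Nr3c2, the mineralocorticoid receptor, was 7.85 RPKM in control and 6.30 in CUMS (-0.32, -0.52 to -0.12), and Nr3c1, the glucocorticoid receptor, was 11.6 RPKM in both groups (-0.12 to 0.12).

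Klf and Sp genes code for zinc finger factors that, like Egr proteins, bind GC-rich sites. Of 21 such genes of at least 0.5 RPKM, 11 were lower and 10 higher in CUMS (53.2% of all genes were lower). The median log2 ratio was -0.02. Past the threshold were 4 genes, each lower, beside the same 4.42% of all genes lower and 2.78% higher. Sp8 was 2.84 and 1.42 RPKM (counting interval of the log2 ratio -1.37 to -0.63) and Sp9 was 7.67 and 4.08 RPKM (-0.91), both of which are genes of migrating and olfactory interneurons. Sp7 was 1.92 and 1.10 RPKM (-0.80), and Klf15 was 13.9 and 9.19 RPKM (-0.60).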
